A study of Homo sapiens with 12 samples.

Results

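The IL-6 family genes examined here were 9 genes chosen by symbol from the deposited gene counts: the cytokines IL6, IL11, LIF and CLCF1, the receptor chains IL6ST, IL6R, LIFR and OSMR, and the feedback inhibitor SOCS3. All 9 were found among the 62069 genes of the table, and all 9 were among the 15284 genes that passed the filter on low counts. The RNA was that of IMR90 ER:RAS cells, a line of human lung fibroblasts that carries a RAS oncogene switched on by 4-hydroxytamoxifen (4OHT), a model of oncogene-induced senescence (OIS). There were 4 groups of 3 libraries, all at passage 13 and from day 5 of induction: non-induced cells (libraries T, A and C), cells induced with 100 nM 4OHT (T, A and B), and cells induced in the same way that also expressed an shRNA against XPO7, a nuclear transport receptor, either shXPO7_3 or shXPO7_5 (T, A and B each). The comparison of induced with non-induced cells asks how these genes differ in OIS, and the comparisons of the shXPO7 groups with induced cells ask what XPO7 depletion changes during OIS. No cells without ER:RAS received 4OHT. Effects of 4OHT, RAS signaling and senescence thus cannot be told apart, and OIS below stands for the induced state. Whether the 3 libraries of each group represent separate cultures is not given in the labels, and the p-values therefore reflect only library-to-library spread, possibly technical.

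IL-6 family cytokines signal through receptor complexes that share the chain gp130, the product of IL6ST. A cytokine-specific chain joins gp130: IL6R for IL-6, which can also act as a soluble receptor, LIFR for LIF, and OSMR for oncostatin M. The receptor of CLCF1 holds CNTFR and LIFR beside gp130. Engaged gp130 activates JAK kinases and the transcription factor STAT3, which induces SOCS3, and SOCS3 then binds gp130 and the JAKs and damps the signal. IL-6 is among the best-known factors that senescent fibroblasts secrete.

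The libraries held 28534141 to 60397769 counts. XPO7 was at 127 to 144 CPM (counts per 1000000 counts of a library) in the induced libraries, at 26.4 to 28.7 CPM with shXPO7_3 and at 50.8 to 54.0 CPM with shXPO7_5, in the direction of the labels. CDKN1A and CDKN2A, which encode the cell cycle inhibitors p21 and p16, were higher in induced than in non-induced cells by 1.19 and 0.98 on the log2 scale, and the proliferation marker MKI67 (-3.30) and the nuclear lamina gene LMNB1 (-3.08) were lower. Fibroblast markers summed to 23200 to 26900 CPM in non-induced and 16100 to 17400 CPM in induced libraries. Of 9, 4 were called lower in OIS (DCN by -3.37 and COL1A2 by -1.16 on the log2 scale) and 0 higher. Of all genes tested, 26.1% were called lower and 24.8% higher. FAP was higher in every induced library (189 to 206 against 89.4 to 170 CPM) but was not called (0.53, adjusted p = 0.155). The GC content and length correction described below also called LUM as lower (-0.75, adjusted p = 9.86e-05) and FAP as higher (0.40, adjusted p = 0.00533). The part of the fall in the summed markers in the results below was not tested. Epithelial markers summed to at most 1.24 CPM, with KRT5, KRT14 and SFTPC at 0 counts throughout, and leukocyte markers to at most 0.198 CPM. Endothelial markers summed to 14.4 to 14.8 CPM in non-induced and 9.04 to 10.0 CPM in induced cells, with PECAM1 and CDH5 at 0 counts throughout. On the log2 scale TEK was at -0.98 (adjusted p = 1.52e-06) and VWF at 0.50 (adjusted p = 0.0521). In bulk RNA, fewer cells that express a gene and less RNA of it per cell cannot be told apart.

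RefSeq promoters (GRCh38.p14) were at hand for 7 of the 9 genes, and LIF and CLCF1 had no entry. The stretches of IL6 and IL11, the cytokine whose name the family bears and the member with the largest rise in OIS, are shown 5′ to 3′ up to the first base of the window that is in an annotated exon, with matches to the letters searched in capitals. Another annotated IL6 transcript starts further upstream. For IL6 (chr7:22726950-22727146, plus strand) these are TTGCACAA, a C/EBP match, and GGATTTTCC, an NF-kB match. For IL11 (chr19:55370464-55370713, minus strand) it is TGAGTCA, an AP-1 match.
IL6: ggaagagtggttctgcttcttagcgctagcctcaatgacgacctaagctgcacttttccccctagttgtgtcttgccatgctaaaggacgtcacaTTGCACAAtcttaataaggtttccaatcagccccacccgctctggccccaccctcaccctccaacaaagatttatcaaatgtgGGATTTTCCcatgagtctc
IL11: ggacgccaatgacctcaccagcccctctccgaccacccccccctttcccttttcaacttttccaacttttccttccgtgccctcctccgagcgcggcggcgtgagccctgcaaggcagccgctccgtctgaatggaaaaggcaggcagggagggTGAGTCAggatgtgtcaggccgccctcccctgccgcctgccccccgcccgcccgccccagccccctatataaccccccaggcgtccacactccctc

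The letters searched on both strands, in the 250 bases before the start, were GGANTTTCC for NF-kB, TGANTCA for AP-1, TTGCNNAA for C/EBP, TTCNNNGAA for STAT factors and TGACGTCA for CREB/ATF. No matches overlapped. The NF-kB letters occurred in 1.45% of 35116 RefSeq promoter windows of this length, and among the members only in the IL6 window. AP-1 letters occurred in 6.57% of windows and among the members only in that of IL11. C/EBP letters (9.05% of windows) were found in IL6, OSMR and 1 of 3 LIFR windows, and STAT letters (6.57%) in 2 of the 3 LIFR windows. The CREB/ATF letters (1.65%) were in none of them, and the IL6ST, IL6R and SOCS3 windows held none of the letters. These are matches of letters, not measured binding, and other forms of these sites were not searched.

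All 4 cytokines rose in OIS. IL6 stood at 2.41, 2.45 and 2.92 CPM in the non-induced libraries and at 8.34, 9.39 and 8.65 CPM in the induced libraries. The lowest induced library was thus well above the highest non-induced library, at raw counts of 78 to 499 per library over the whole series. The rise was 3.38-fold (log2 fold change 1.76, SE 0.12, adjusted p = 9.03e-08 by edgeR's quasi-likelihood test).

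IL11, a cytokine of stromal cells that signals through IL11RA and gp130, showed the largest change among the members. Its levels were 13.1, 12.4 and 12.9 CPM without induction and 73.7, 80.2 and 74.1 CPM with it. The groups lay far apart, and the change was 5.94-fold (log2 2.57, SE 0.11, adjusted p = 1.37e-09).

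LIF, which signals through LIFR and gp130, went from 136, 128 and 118 CPM to 388, 393 and 385 CPM, a 3.06-fold rise (log2 1.61, SE 0.092, adjusted p = 2.60e-08). The 3 induced libraries differed by only 1.02-fold between the highest and the lowest. CLCF1, which signals through CNTFR, LIFR and gp130, went from 6.43, 6.92 and 6.92 CPM to 15.6, 17.3 and 17.7 CPM, a 2.49-fold rise (log2 1.32, SE 0.12, adjusted p = 2.29e-06). For both genes each induced library was above each non-induced library.

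**Figure D1:**
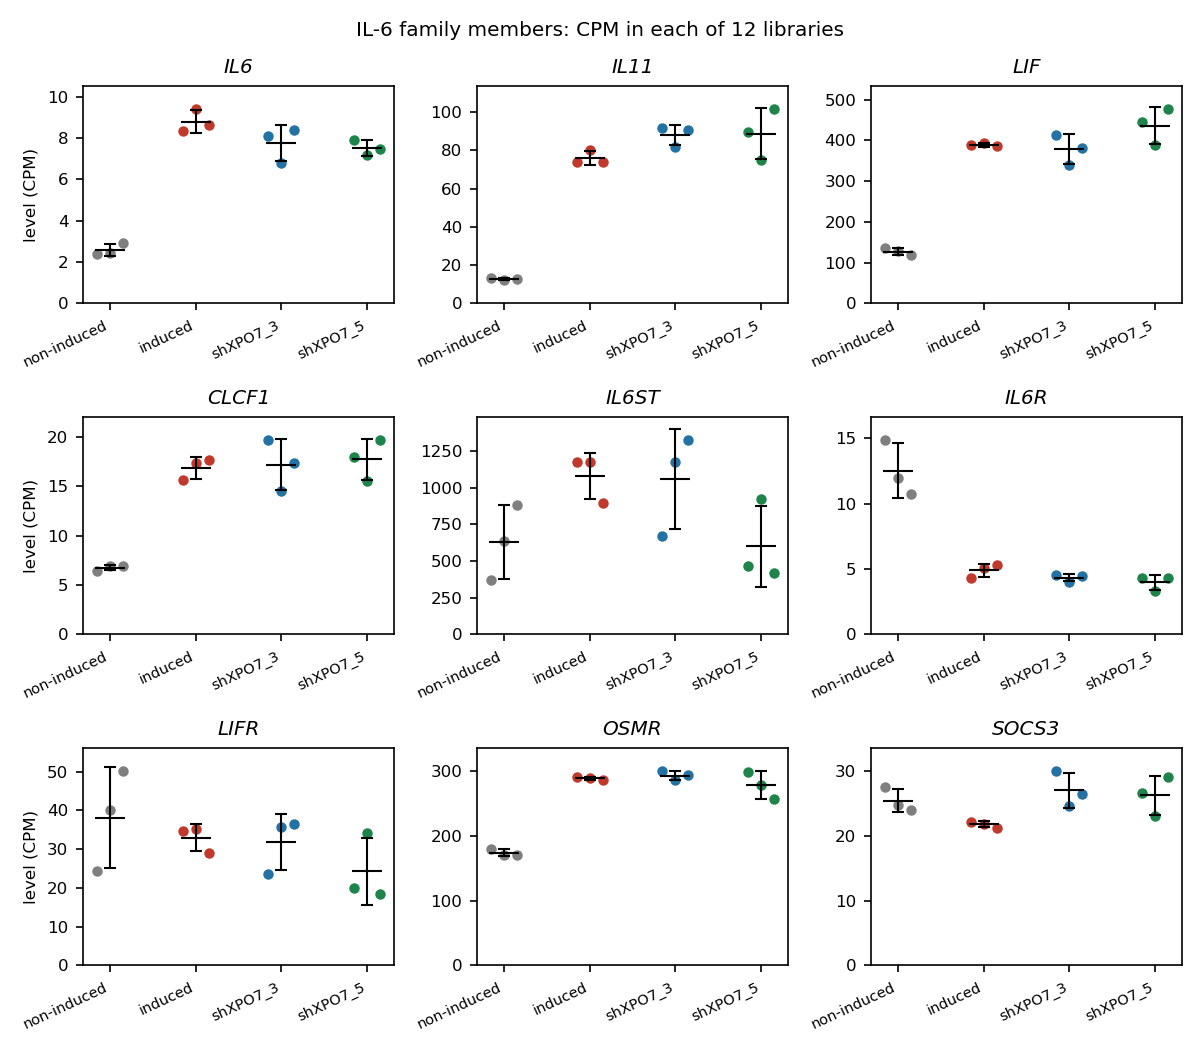
Level of each of the 9 genes in CPM (vertical axis, from 0) in the 12 libraries, by group; each point is 1 library, and black bars give the group mean and SD (n = 3). The 4 cytokines and OSMR sit higher in all 3 groups that received 4OHT than in the non-induced group, IL6R sits lower, and IL6ST and LIFR scatter widely within groups.

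The receptor chains did not move together. IL6R fell: its levels were 14.8, 11.95 and 10.7 CPM in the non-induced and 4.32, 5.07 and 5.27 CPM in the induced libraries. All 3 induced libraries were below all 3 non-induced libraries (log2 fold change -1.35, SE 0.14, adjusted p = 6.31e-06). OSMR, the chain that pairs with gp130 to bind oncostatin M, rose from 179.9, 171 and 171 CPM to 291, 289 and 286 CPM (log2 fold change 0.73, SE 0.062, adjusted p = 1.04e-06). The change of OSMR was smaller than that of any cytokine, but the libraries of each group were close to each other.

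IL6ST, which encodes gp130, spread widely within groups: 373, 633 and 883 CPM in the non-induced and 1171, 1171 and 897 CPM in the induced libraries. The groups just failed to overlap, and the difference did not pass the test (log2 fold change 0.78, SE 0.35, adjusted p = 0.0837). After a correction of each library for the GC content and length of its genes, the IL6ST difference was 0.64 with an adjusted p of 5.23e-04, and this was 1 of 5 among 14 other settings that called it. Without non-induced library C it was 1.10 (adjusted p = 0.0307), and without non-induced library T it was 0.51 (adjusted p = 0.248). LIFR was at 24.3, 39.98 and 50.1 CPM in the non-induced and 34.8, 35.1 and 28.9 CPM in the induced libraries, which lay within the non-induced range. Its log2 fold change was -0.21 (SE 0.28, adjusted p = 0.547), -0.32 after the GC and length correction (adjusted p = 0.00577) and 0.035 without non-induced library C, so that no direction can be given.

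SOCS3 did not rise with the cytokines. It was at 27.4, 24.8 and 24.0 CPM in the non-induced and 22.1, 21.9 and 21.2 CPM in the induced libraries. The induced libraries were all lower, by a small amount that did not pass the test (log2 fold change -0.22, 95% interval -0.44 to -0.0054, adjusted p = 0.081). Of 14 other settings 4 called it: the GC and length correction (-0.16, adjusted p = 0.0214), the fit to the 2 groups alone (-0.22, adjusted p = 0.0333), upper-quartile factors (-0.32, adjusted p = 0.0395) and the replicate block (-0.28, adjusted p = 0.0406).

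Of the 9 members, 5 were higher and 1 was lower in OIS at an adjusted p under 0.05, where 50.9% of all genes tested were called, 24.8% as higher and 26.1% as lower. These 6 calls (IL6, IL11, LIF, CLCF1, OSMR and IL6R) were made under each of the 14 other settings of the fit, which gave adjusted p values of at most 7.79e-05 for them. In 8 of the 9 the induced and non-induced libraries did not overlap, against 63.2% of all genes, LIFR being the exception. With the GC and length correction all 9 members were called, against 62.6% of all genes. The median log2 fold change of the members was 0.78, and that of all genes -0.0068. An exact permutation test of 3 against 3 libraries cannot give a p below 0.1, which is what the members without overlap gave.

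Levels of different genes were compared per length, as CPM per kilobase of exon. In induced cells IL6ST (96.6 to 126 CPM per kb) and LIF (97.1 to 98.9) were highest and overlapped, followed by OSMR (39.9 to 40.6) and IL11 (27.6 to 30.0). CLCF1 (7.89 to 8.94) and SOCS3 (7.76 to 8.10) overlapped, and IL6 (4.03 to 4.54), LIFR (2.44 to 2.96) and IL6R (0.669 to 0.816) came last without overlap between neighbours. By this length IL6 was below the other 3 cytokines in OIS. A shorter length for IL6 would raise its value, and which transcripts were present was not tested.

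In non-induced cells the order was IL6ST (40.2 to 95.03 CPM per kb), LIF (29.6 to 34.2), OSMR (23.8 to 25.1), SOCS3 (8.79 to 10.0), IL11 (4.63 to 4.91), CLCF1 (3.25 to 3.51), LIFR (2.04 to 4.22), IL6R (1.66 to 2.30) and IL6 (1.17 to 1.41). LIFR overlapped both of its neighbours, and the other neighbours did not overlap. By this length IL6 was below IL6R in every non-induced library and above IL6R in every library that received 4OHT. IL11 was below SOCS3 in non-induced cells and above it in the 3 other groups. Both orders depend on the length used for each gene.

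**Figure D2:**
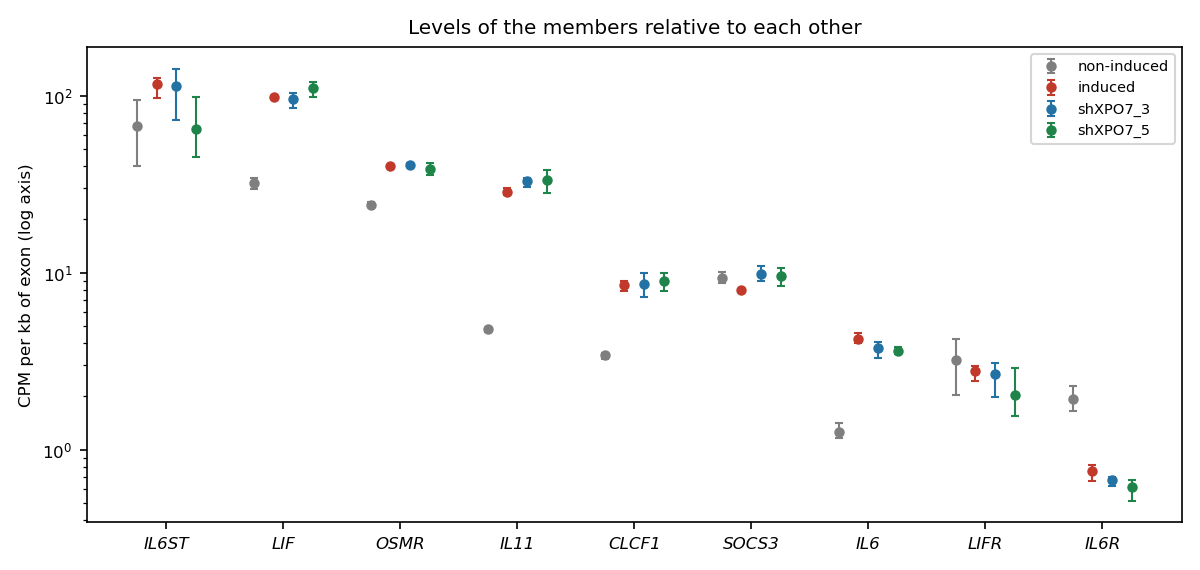
Level of each gene per kilobase of exon (CPM per kb, log axis), ordered by the mean in induced cells, for the 4 groups; points are means and bars run from the lowest to the highest of 3 libraries. With all annotated exon bases of a gene as its length, IL6 lies below IL6R only in non-induced cells (1.17 to 1.41 against 1.66 to 2.30 CPM per kb). The order of genes depends on that length.

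The spread of IL6ST and LIFR within groups went with the base composition of the libraries. The GC trend of a library, the slope of log2 level on GC content across all genes relative to the mean library, ran from -0.17 to 0.33 log2 units per 10 points of GC. IL6ST (GC content of its exons 37.6%) and LIFR (39.3%) are the members poorest in GC, and in each of the 4 groups the library with the highest GC trend held the lowest level of both. Over the 12 libraries, deviations of log2 CPM from the group mean correlated with those of the GC trend at r = -0.97 for IL6ST and -0.96 for LIFR, and at 0.94 for SOCS3 (GC content 61.9%) and 0.93 for LIF (57.4%). For OSMR (44.7%) and IL6 (45.8%) r was 0.024 and -0.029. The members share the same 12 libraries, and these values are given as a description.

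Within groups, the ratio of the highest to the lowest library was 1.3 to 2.37 for IL6ST and 1.21 to 2.07 for LIFR, and after the GC and length correction it was 1.13 to 1.4 and 1.06 to 1.3. For genes of at least 10 CPM with a GC content under 40%, the median ratio was 1.55 in non-induced and 1.14 in induced libraries, and for those between 40% and 50% it was 1.14 and 1.07. The source of the GC trend was not tested.

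**Figure D3:**
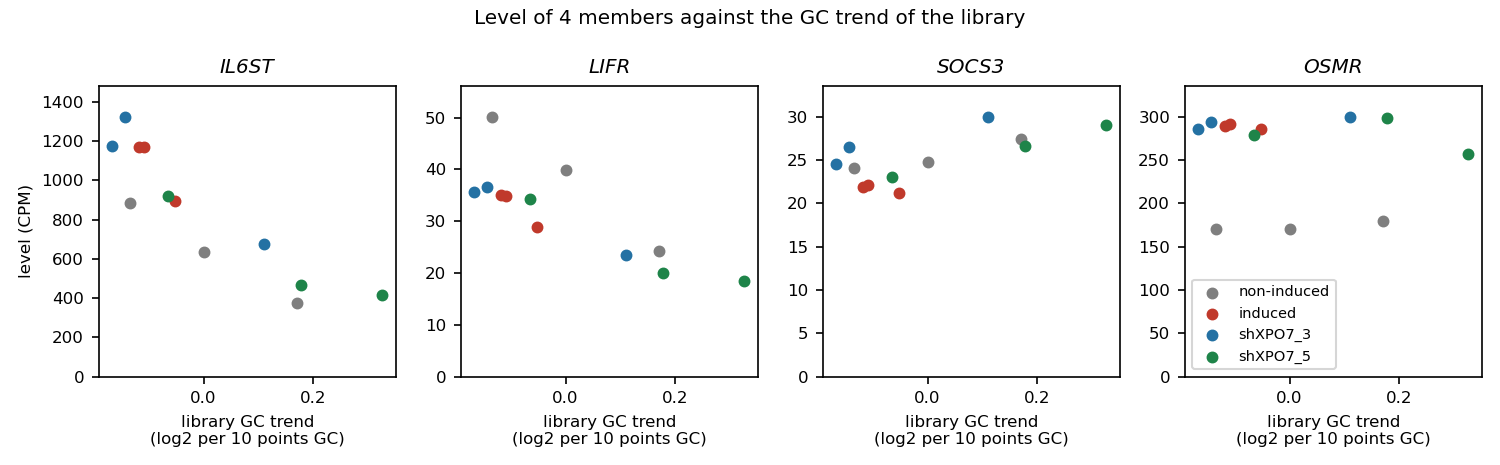
Level in CPM (vertical axis, from 0) of IL6ST, LIFR, SOCS3 and OSMR against the GC trend of the library (horizontal axis, log2 units per 10 points of GC); each point is 1 of 12 libraries, colored by group. IL6ST and LIFR fall as the GC trend rises, also within a group, while OSMR separates the non-induced libraries (171 to 179.9 CPM) from the others whatever the trend.

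XPO7 depletion left the cytokines near the level of induced cells. IL6 was at 8.12, 6.79 and 8.41 CPM with shXPO7_3 and at 7.92, 7.16 and 7.48 CPM with shXPO7_5, against 8.34 to 9.39 CPM in induced cells. The shXPO7_5 libraries were all below the induced ones by a small amount (log2 fold change -0.22, 95% interval -0.46 to 0.0073, adjusted p = 0.239), and those of shXPO7_3 overlapped them (-0.17, -0.40 to 0.057, adjusted p = 0.987). IL11 was at 91.6, 82.0 and 90.4 CPM with shXPO7_3 and at 89.5, 75.1 and 101.5 CPM with shXPO7_5. All shXPO7_3 libraries were above the induced range of 73.7 to 80.2 CPM (0.21, -0.0031 to 0.43, adjusted p = 0.791), whereas shXPO7_5 overlapped it (0.22, 0.0076 to 0.44, adjusted p = 0.225). The IL11 difference of shXPO7_5 was 0.033 (-0.097 to 0.16) after the GC and length correction, 0.12 without its library B and 0.33 without its library A.

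LIF was at 414, 339.6 and 381 CPM with shXPO7_3 and at 444, 388 and 476 CPM with shXPO7_5. Both groups overlapped the induced libraries, with 95% intervals of the log2 difference of -0.24 to 0.16 and -0.030 to 0.36. With shXPO7_5 the LIF difference was 0.17, and 0.016 (-0.086 to 0.12) after the correction. CLCF1 ranged from 14.5 to 19.6 CPM with shXPO7_3 and from 15.5 to 19.6 CPM with shXPO7_5, and also overlapped (intervals -0.23 to 0.28 and -0.19 to 0.33). The intervals of the 4 cytokines reach down to -0.46 (IL6) and up to 0.44 (IL11) on the log2 scale.

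Among the receptor chains, OSMR was closest to the induced level, at 299, 286 and 293 CPM with shXPO7_3 and 299, 279 and 257 CPM with shXPO7_5 (intervals -0.11 to 0.16 and -0.19 to 0.083). IL6R was at 4.53, 4.02 and 4.48 CPM and at 4.35, 3.32 and 4.31 CPM (-0.49 to 0.15 and -0.62 to 0.032). LIFR ranged from 23.5 to 36.6 CPM and from 18.5 to 34.2 CPM. All 3 overlapped the induced libraries in both groups, and none passed the test.

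IL6ST was at 673, 1175 and 1322 CPM with shXPO7_3, on both sides of the induced libraries. With shXPO7_5 it was at 465, 919 and 416 CPM, so that library A lay within the induced range and T and B lay far below. The log2 difference of shXPO7_5 from induced cells was -0.85 (95% interval -1.61 to -0.079, adjusted p = 0.214), and -0.48 after the GC and length correction (adjusted p = 0.0731). Libraries T and B of shXPO7_5 also had GC trends of 0.18 and 0.33, against -0.064 in library A and -0.12 to -0.052 in the induced libraries.

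SOCS3 was at 29.9, 24.6 and 26.5 CPM with shXPO7_3 and at 26.6, 23.1 and 29.1 CPM with shXPO7_5. Every shXPO7 library was above every induced library (21.2 to 22.1 CPM), and both groups overlapped the non-induced range. The log2 differences from induced cells were 0.31 with shXPO7_3 (SE 0.10, 95% interval 0.094 to 0.53, adjusted p = 0.449) and 0.27 with shXPO7_5 (SE 0.10, 0.053 to 0.49, adjusted p = 0.192), and neither passed the test. After the GC and length correction the first was 0.28 with an adjusted p of 0.0194, and the second 0.069 with an adjusted p of 0.541.

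**Figure D4:**
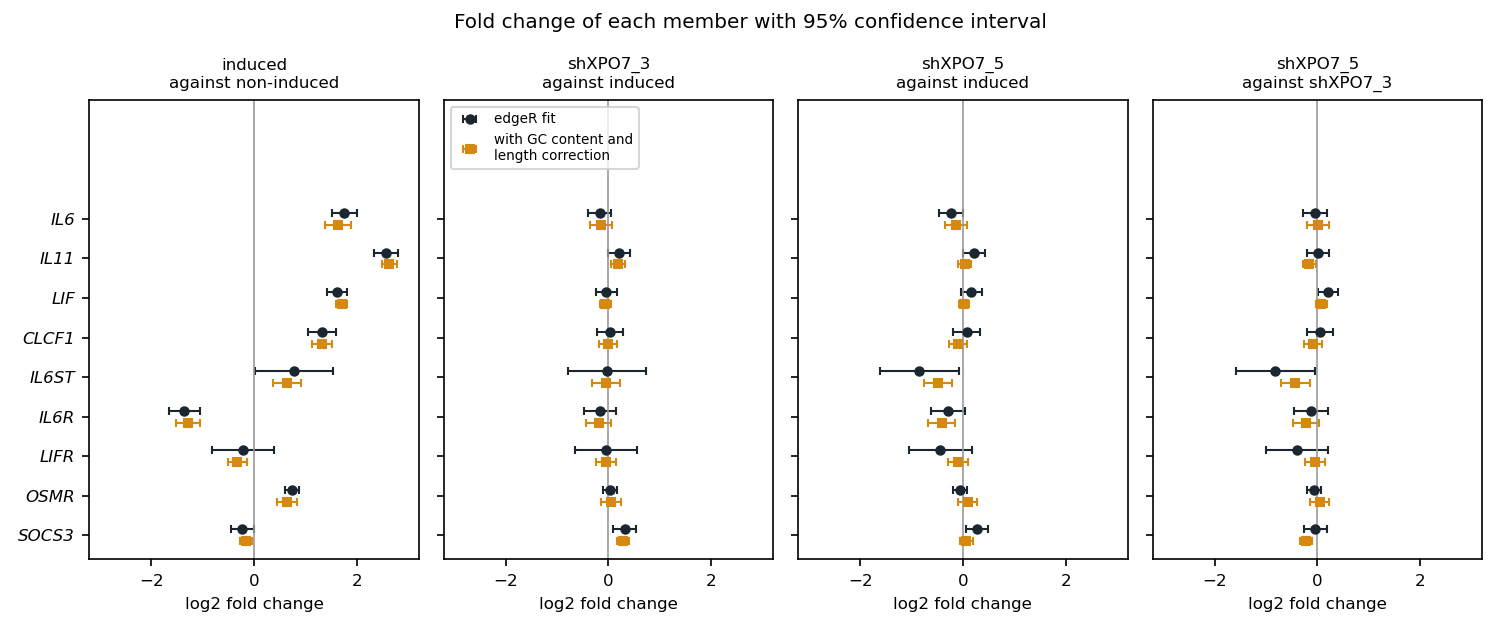
Log2 fold change of each gene (horizontal axis) with its 95% confidence interval in 4 comparisons; circles are the edgeR fit over 12 libraries and squares the fit with the GC content and length correction. Intervals of the 4 cytokines, OSMR and IL6R lie clear of 0 in OIS (left panel). The circle intervals of IL6ST (0.011 to 1.54) and SOCS3 (-0.44 to -0.0054) exclude 0 narrowly, and neither gene passed the adjusted test. In that panel the circle interval of LIFR includes 0, and every square interval excludes it. In the shXPO7 comparisons the widest circle intervals (edgeR fit) are those of IL6ST and LIFR.

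No member was called between shXPO7_3 and induced cells (0 of 9 by edgeR, against 0.124% of all genes) or between shXPO7_5 and induced cells (0 of 9, against 0.589%). DESeq2 also called 0 in both. At an unadjusted p under 0.05 there was 1 member in the first comparison (SOCS3), where 6.41% of all genes were, and 3 in the second (IL11, IL6ST and SOCS3), where 21.6% were. With the GC and length correction 1 member was called in the first comparison (SOCS3) and 0 in the second, against 1.49% and 2.15% of all genes. Libraries did not overlap for 2 members in each, against 14.6% and 26.8% of all genes. The median log2 fold changes of the members were -0.030 and -0.052, and those of all genes -0.0031 and 0.0058. Without shXPO7_5 library A, 3 members were called in the second comparison: IL11 (0.33, adjusted p = 0.0334), IL6ST (-1.29, adjusted p = 0.0354) and SOCS3 (0.36, adjusted p = 0.0371), in a fit that called 3634 genes in all. The 2 libraries that remain there are T and B, with the high GC trends.

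The shRNAs were also compared directly. Between shXPO7_5 and shXPO7_3, in which XPO7 itself differed by 0.92 on the log2 scale, 0 of 9 members were called by edgeR (0.0131% of all genes) and 0 by DESeq2. At an unadjusted p under 0.05 there were 2, against 11.9% of all genes: LIF (0.21, 95% interval 0.0090 to 0.40, adjusted p = 0.388) and IL6ST (-0.82, -1.58 to -0.049, adjusted p = 0.388). After the GC and length correction they were 0.078 (-0.024 to 0.18) and -0.43 (-0.70 to -0.15, adjusted p = 0.319). In none of the 9 did the libraries of the 2 groups stay apart, against 9.71% of all genes that did.

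Set against non-induced cells, both shXPO7 groups gave the 6 calls of OIS, 5 higher and 1 lower each. Of all genes, 50.6% were called with shXPO7_3 (24.5% higher, 26.2% lower) and 52.3% with shXPO7_5 (25.3% higher, 27% lower). These comparisons share the non-induced libraries with each other and with that of OIS. IL11 was higher by 2.78 with shXPO7_3 and 2.79 with shXPO7_5, IL6 by 1.59 and 1.53, LIF by 1.57 and 1.78, CLCF1 by 1.34 and 1.39 and OSMR by 0.75 and 0.68, and IL6R was at -1.52 and -1.65, all on the log2 scale. The largest adjusted p among these was 2.24e-06. IL6ST was at 0.75 with shXPO7_3 (95% interval -0.019 to 1.51) and at -0.069 with shXPO7_5 (-0.83 to 0.69). LIFR was at -0.26 (-0.86 to 0.34) and at -0.65 (-1.26 to -0.046, adjusted p = 0.0674, called in 6 of 14 other settings). DESeq2 called 6 members with shXPO7_3 and 7 with shXPO7_5, and the GC and length correction 8 and 7, against 62.6% and 62.9% of all genes. SOCS3 differed from the non-induced level by 0.088 (95% interval -0.13 to 0.31) and 0.047 (-0.17 to 0.27).

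The other genes of the pathway were taken as lists. Among 7 other cytokine genes related to the family, 4 passed the filter. CNTF rose in OIS (1.37, from 0.154 to 0.486 CPM up to 0.921 to 0.968 CPM) and CTF1, which encodes cardiotrophin-1, fell (-0.99). EBI3, a subunit of IL-27 and IL-35, was lower by 0.86 on the log2 scale (adjusted p = 0.016) and lost its call in 6 of 14 other settings, among them the fits without non-induced library C (adjusted p = 0.0531), induced A (0.0503) or induced B (0.055). The 3 that did not pass the filter, OSM, IL27 and IL31, had at most 3 counts in any library. OSM and IL31 encode ligands of receptor complexes that hold OSMR. Their RNA was therefore at or near the detection limit, a count of 0 allowing for 0.0497 to 0.105 CPM by depth.

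Of 6 other receptor chains and sheddases, 5 passed the filter. IL31RA, which pairs with OSMR to bind IL-31, rose from 1.56 to 1.79 CPM to 9.73 to 10.9 CPM (log2 fold change 2.62, SE 0.096, adjusted p = 4.94e-10), and IL27RA rose from 4.99 to 6.64 CPM to 12.2 to 13.4 CPM. IL11RA, the specific chain for IL-11, fell from 4.85 to 6.07 CPM to 1.84 to 2.66 CPM (-1.21, SE 0.18, adjusted p = 1.09e-04). The specific chains for IL-6 and IL-11 were thus both lower while their ligands were higher. ADAM10 and ADAM17, proteases that shed IL6R from the cell surface, gave 0.022 and 0.11, and neither passed the test. CNTFR, a chain of the CLCF1 receptor, did not pass the filter, with at most 2 counts in any library.

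Of 7 JAK kinases and STAT factors, only STAT5A passed the test in OIS (-1.77, adjusted p = 1.16e-05), where 50.9% of all genes did. JAK1 was at -0.050 and STAT3 at 0.16 (adjusted p = 0.0935). The GC and length correction, which called 62.6% of all genes, also called STAT3 (0.18, adjusted p = 0.0165). Of 13 negative regulators of JAK-STAT signaling, 11 passed the filter, 1 rose and 3 fell, where 50.9% of all genes were called. SOCS1, a close relative of SOCS3 that inhibits JAKs, fell from 5.81 to 8.67 CPM to 0.601 to 0.815 CPM (log2 fold change -3.29, SE 0.21, adjusted p = 5.94e-08), SOCS5 fell by 0.72 and SOCS2 fell by 0.36, whereas the phosphatase gene PTPN1 rose by 0.62. With the GC and length correction SOCS4 (0.48, adjusted p = 2.33e-05) and SOCS6 (-0.39, adjusted p = 4.38e-05) were called as well. SOCS7 was not matched and PTPN6 did not pass the filter.

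Textbook STAT3 targets went in both directions. Of 21, 17 passed the filter, 8 rose and 2 fell, with a median log2 fold change of 0.61, where 24.8% of all genes rose and 26.1% fell. With the GC and length correction 14 of the 17 were called, against 62.6% of all genes, with BCL2L1, HIF1A, MYC and SBNO2 added as higher. TIMP1, an inhibitor of metalloproteinases (2.35), the transcription factor gene FOS (2.05) and MCL1, which encodes a survival factor (1.95), rose most. The kinase gene PIM1 (-1.31) and CEBPD (-0.71) fell. LBP, LRG1, FGG and HP, genes of the acute phase response of the liver, did not pass the filter. Many of these targets also respond to other factors.

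Among 12 regulators of IL6 transcription and mRNA decay, 7 rose and 2 fell, with a median of 0.52, where 24.8% of all genes rose and 26.1% fell. With the GC and length correction all 12 were called, against 62.6% of all genes, with RELA, ATF3 and ZFP36L1 added as higher. IL1B rose from 0.154 to 0.389 CPM to 136 to 138 CPM (log2 fold change 8.99) and IL1A from 0.0927 to 0.316 CPM to 29.6 to 32.4 CPM (7.17), each with fewer than 30 counts over the 3 non-induced libraries. Both encode cytokines that induce IL6. ZC3H12A, which encodes a nuclease that degrades IL6 mRNA, rose by 2.14, and ZFP36, which encodes another destabilizer of cytokine mRNAs, fell by 1.16. CEBPD, which is in both lists, also fell. With shXPO7_3 no gene of the 6 lists was called against induced cells by the uncorrected fit, whereas the GC and length correction called STAT3 (-0.30, adjusted p = 0.0244), SOCS2 (0.36, adjusted p = 0.027), JUNB (0.32, adjusted p = 0.00881) and ZFP36L1 (0.22, adjusted p = 0.0236). The uncorrected value of STAT3 was -0.28 (adjusted p = 0.265). With shXPO7_5 there was 1, ZFP36L1, an mRNA decay factor (0.37, adjusted p = 0.0174), a call that 6 of 14 other settings did not give, and the correction also called JUNB (0.27, adjusted p = 0.0178).

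**Figure D5:**
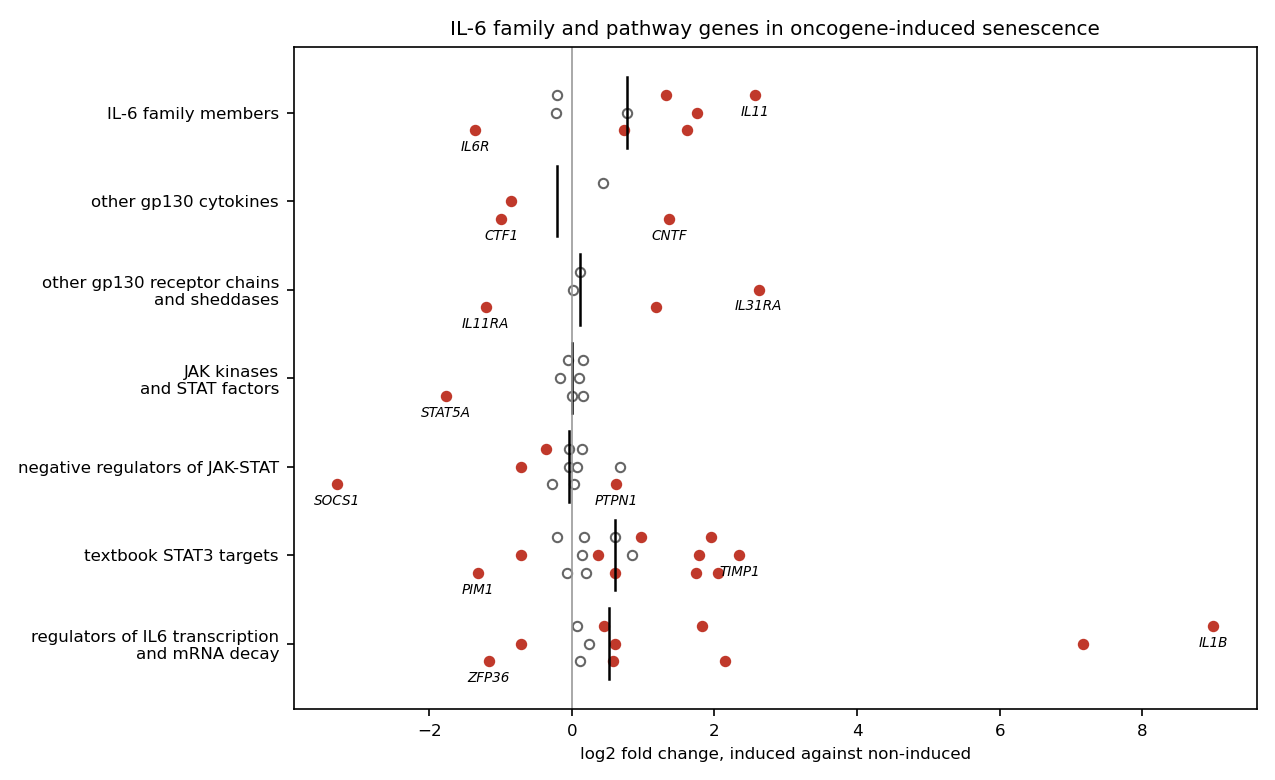
Log2 fold change in OIS (horizontal axis) of the 9 IL-6 family genes and of the genes of 6 pathway lists; filled points passed the test at an adjusted p under 0.05, open points did not, black lines are list medians, and the most changed called genes are named. IL11 (2.57) and IL6R (-1.35) mark the range of the family, and SOCS1 (-3.29) and IL1B (8.99) that of the lists. The row of other gp130 receptor chains also holds IL31RA, which pairs with OSMR.

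The genes most like 4 of the members over the 12 libraries were also found, among 10568 genes whose log2 CPM averaged 2 or more. For IL6 they were CD163L1, HK2 and DCC (Pearson's r of log2 CPM 0.99 each), for IL11 IER3, PRR5L and ZC3H12A, and for LIF PLK3, MAPK13 and DUSP5 (0.998 each). The gene at rank 100 still had r of 0.979, 0.991 and 0.99, and these genes share the step from non-induced to induced cells. For SOCS3, which has no such step, r was lower: 0.935 for SEMA3F, 0.918 for ZNF586 and 0.903 for ATP9A, and 0.789 at rank 100. Within groups SOCS3 followed the GC trend of the libraries (r = 0.94), and the part of that trend in these values was not tested.

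In GENCODE 29 (GRCh38), IL6 lies on chromosome 7 (22725884 to 22732002), IL11 on 19 (55364389 to 55370463), LIF on 22 (30240447 to 30246851), CLCF1 on 11 (67364168 to 67374177), IL6R on 1 (154405193 to 154469450) and SOCS3 on 17 (78356778 to 78360077). The other 3 receptor genes are on chromosome 5: LIFR (38474963 to 38608354), OSMR (38845858 to 38945596) and IL6ST (55935095 to 55994993). Opposite-strand genes share exon bases with some members, and without a stated strand setting reads there cannot be told apart. IL6-AS1 shares 428 exon bases with IL6 and was at 0.368 to 0.433 CPM in non-induced and 0.248 to 0.424 CPM in induced libraries. STEAP1B shares 46 exon bases with IL6 and was lower in induced (4.46 to 5.74 CPM) than in non-induced libraries (6.18 to 6.7 CPM), opposite to IL6. RICTOR shares 229 exon bases with OSMR and was at 21.2 to 68.3 CPM over the series. LIF, IL6ST and LIFR share exon bases only with antisense genes of at most 2.22 CPM.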

How the data were processed

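RNA was sequenced from 12 libraries of IMR90 ER:RAS cells, made with a stranded mRNA kit. The authors deposited raw read counts per gene, not normalized. Per the submitters' processing notes, the tools were CASAVA 1.8.4, featureCounts 1.18.0 and TopHat2 2.0.11, with hg19 and GRCh37 as builds. Annotation, strand setting and treatment of multimapped reads remain not given in the sources used here. Totals of 28534141 to 60397769 counts per library set the precision of low genes.

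Genes were listed by Ensembl identifier, and symbols, lengths and GC content came from the gene tables and GENCODE 29. The 92 spike-in entries were at 0 counts and were left out. Groups came from the sample labels. Genes kept by filterByExpr (15284) were fitted over all 12 libraries with edgeR 4.0.16 (R 4.3.3; TMM factors, quasi-likelihood test, Benjamini-Hochberg adjustment over all genes tested, threshold 0.05). CPM values use TMM factors. The methods text read here names no test for these counts, and the supplementary methods were not used here. Single values were also compared by an exact two-sided permutation test.

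The 9 members, the pathway and marker lists and the tests were chosen with earlier results of these data known. Named genes were all members, per list and comparison up to 3 called genes with the largest change in each direction, the untested genes of a list where there were 5 or fewer, the 3 genes most correlated with IL6, IL11, LIF and SOCS3, and XPO7, CDKN1A, CDKN2A, LMNB1 and MKI67 as checks; further genes were named for their role. Alternatives were RLE (DESeq2's) and upper-quartile factors, no filter, a minimum of 1 CPM in 6 or more libraries, a replicate block, a correction of each library by splines with 5 degrees of freedom on GC content and length, a fit to the 2 groups compared, DESeq2 1.42.0, a minimum absolute log2 change of 1, and leaving out each library.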

Additional observations from a re-analysis of the deposited data

How the results depend on the processing

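The 6 calls in OIS (IL6, IL11, LIF, CLCF1, OSMR and IL6R) held under each alternative fit; a required log2 fold change of at least 1 removed OSMR and left 2573 of 7777 genes. Same-lettered libraries deviated together only in part. Their deviations correlated between -0.23 and 0.59, over 0.1 in 8 of 15 pairs, and 6 of 12 libraries correlated best with their own letter. With the replicate block, 149 genes instead of 90 were called for shXPO7_5 against induced cells, 8 members instead of 6 were called in OIS (IL6ST at 1.21, adjusted p = 0.00561, and SOCS3 at -0.28, adjusted p = 0.0406), and LIFR there turned to 0.13. Upper-quartile factors moved the all-gene median in OIS to -0.10 (log2) and turned SOCS3 between the shRNAs to 0.0077. The cause of these changes was not tested.

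For shXPO7_3 against induced cells, 19 genes were called, 8 with upper-quartile factors, 30 without the filter, 227 with the GC and length correction (1 member, SOCS3), 2 in the 2-group fit, 97 by DESeq2 and 2 with a log2 fold change of at least 1; each left-out library gave 1 (members 0). For shXPO7_5 the counts were 90, then 217 without the filter (1 member, IL6ST), 328 corrected, 10 in the 2-group fit, 458 by DESeq2 and 8 with the fold change; left-out libraries gave 2 to 3634 genes and 0 to 3 members, the highest without shXPO7_5 library A. Between the shRNAs 2 genes were called, 20 without the filter, 24 corrected, 0 in the 2-group fit, 28 by DESeq2, 0 with the fold change and 1 to 4 with a library left out.

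Reversals were among small differences. The GC and length correction turned CLCF1 (-0.0034 for shXPO7_3, -0.096 for shXPO7_5) and OSMR (0.089 for shXPO7_5) against induced cells, and IL6 (0.013), IL11 (-0.15), CLCF1 (-0.093) and OSMR (0.041) between the shRNAs. With a library left out, LIFR in OIS ran from -0.45 to 0.035. For shXPO7_3 the ranges were -0.11 to 0.033 for LIF, -0.084 to 0.13 for CLCF1, -0.23 to 0.20 for IL6ST, -0.16 to 0.13 for LIFR and -0.00049 to 0.038 for OSMR. For shXPO7_5 they were -0.0092 to 0.16 for CLCF1 and -0.11 to 0.0036 for OSMR, and between the shRNAs -0.14 to 0.013 for IL6, -0.091 to 0.12 for IL11, -0.061 to 0.16 for CLCF1 and -0.11 to 0.046 for SOCS3. Depth limited IL6 and IL6R most, with 78 and 110 counts in their lowest libraries.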
